A study of Mus musculus with 5 samples.

Results

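The genes described here are the cytosolic translation initiation factors eIF1 to eIF6 with their kinases, exchange factors and inhibitors, the elongation factors eEF1 and eEF2 with their modifying enzymes, and the aminoacyl-tRNA synthetases. They were taken by gene symbol: every symbol that began with Eif and a digit, or with Eef and a digit, and the symbols of 18 named synthetases with or without the ending 2, which marks the mitochondrial enzyme. This gave 93 of the 14462 rows of the deposited table, of which 92 passed a filter on low values (at least 10 in at least 2 libraries). The remaining row, the pseudogene Eef2-ps2, read 3.7 and 23.6 in the IR libraries, against 9.3, 5.5 and 8.7 in the ctrl libraries, and was not tested.

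RNA was measured in lung cells of mice (strain, sex and age are not given in the labels) that carried MC38 tumours, grown from a mouse colon adenocarcinoma line, and the cells had been sorted for CD45, a surface phosphatase of nearly all leukocytes. The group labelled IR held 2 libraries and the group labelled ctrl held 3. All 5 carry the same tumour label, MC38/MC38, and the lungs were taken 3 days after irradiation of tumours, with no radiation dose or field given. The labels do not say what was done to ctrl mice in place of irradiation, nor whether each library came from a separate animal, so p-values measure only how these samples scatter, and that scatter may be technical.

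Protein synthesis begins when eIF2 carries initiator methionyl-tRNA to the small ribosomal subunit, eIF3 and the eIF1 factors hold that complex open to the mRNA, and the eIF4 factors bring in the capped mRNA and unwind it. Stress kinases phosphorylate eIF2 and so block its exchange factor eIF2B, which lowers general initiation and raises translation of selected mRNAs such as that of ATF4. The 4E-binding proteins hold eIF4E away from eIF4G until the kinase mTORC1 phosphorylates them. eEF1A then brings each aminoacyl-tRNA to the ribosome and eEF2 moves the ribosome along, on tRNAs that the synthetases have charged with their amino acids. Leukocytes such as activated lymphocytes raise this machinery when they grow, whereas mature neutrophils make comparatively little protein.

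The authors had scaled their read counts per gene between libraries, and the totals of the values came to 7544034 and 8414753 in IR libraries and 7232126 to 7425923 in ctrl libraries. IR replicate 2 stood apart on the first principal component over all genes (41.6% of the variance), at 131.5, against -6.001 for IR replicate 1 and -51.9 to -30.5 for the ctrl libraries. Ptprc, which encodes CD45, read 17369.3 and 27246.5 in IR libraries and 15842.1, 15543.0 and 15788.0 in ctrl libraries. The mix of leukocyte markers differed between the groups. Mature neutrophil markers summed to 96925 and 183938 in IR libraries, against 42762 to 72354 in ctrl libraries, with 5 of 16 higher and 0 lower by the test below (all genes: 1.14% higher, 0.360% lower) and a median log2 fold change of 1.40. T cell markers summed to 6850 and 5534 in IR libraries, against 9821 to 11418 in ctrl libraries, with 2 of 17 lower and a median of -0.76. B cell markers summed to 23730 and 17942 in IR libraries, against 19489 to 34600 in ctrl libraries, with 1 of 16 lower and a median of -0.49. Classical monocyte markers had 3 of 13 higher (median 0.32), whereas 0 of 16 alveolar macrophage markers (median -0.52) and 0 of 10 NK cell markers (median -0.09) passed. Lung epithelium markers, which the sort should remove, summed to 128968 and 61454 in IR libraries, against 24798 to 30887 in ctrl libraries, with 2 of 18 higher and a median of 0.97. Most of each sum was 1 gene, Scgb1a1, at 103972.1 and 50988.8 in IR libraries and 18790.0, 23115.0 and 19328.0 in ctrl libraries. Both IR libraries lay above the ctrl range for 7 of the 18 markers, beside 15.2% of all genes. They lay below it for 1, Epcam (45.8 and 74.8, against 185.1, 133.4 and 171.6), beside 16.3%. Endothelium markers (7 of 10 in the table) summed to 896 and 737 in IR libraries, against 732 to 1049 in ctrl libraries. Fibroblast markers (5 of 8 in the table) summed to 0.9 and 64.6 in IR libraries, against 0.0 to 28.3 in ctrl libraries. No marker in the table was at 0 in every library, and Col1a1 and Col1a2 were at 0 in IR replicate 1 and ctrl replicate 2. The part of these shifts in the results below was not tested, and in such bulk samples fewer cells of a type and less RNA per cell cannot be told apart.

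Across this machinery 1 gene passed the test between IR and ctrl libraries. Eif2ak3, which encodes the eIF2 kinase PERK, fell to about 0.523 times its ctrl level, and 0 of the 92 members tested were higher. That is 1.09% of the members, beside 1.50% of all 12777 genes tested, by limma on log2(value + 1) with Benjamini-Hochberg adjustment over all genes and an adjusted p under 0.05. The median log2 fold change (IR over ctrl) was -0.09 over the members and -0.05 over all genes tested. At an unadjusted p under 0.05 there were 9 members (9.78%), beside 15.0% of all genes. Both IR libraries lay outside the range of the ctrl libraries for 28 members (30.4%), 13 above and 15 below, beside 31.5% of all genes (15.2% above and 16.3% below). Scaled to library totals instead, 6 lay above and 21 below, beside 32.5% of all genes separated either way and a median of all genes of -0.17.

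Most estimated differences were small. The log2 fold change lay between -0.5 and 0.5 for 60 of 92 members (65.2%), and it was negative for 58 (63.0%), beside 53.2% of all genes. Together the 93 rows held 1.27% and 1.01% of the library total in IR libraries, against 1.43%, 1.27% and 1.30% in ctrl libraries, so that IR replicate 2 had the lowest share. Relative to the ctrl mean of each gene, the median member stood at 0.00 in IR replicate 1 and at -0.17 (log2) in IR replicate 2, and the ctrl libraries stood between -0.03 and 0.05. Between the IR libraries the members differed by a median of 0.348 (absolute log2 difference), against 0.600 for all genes, and between pairs of ctrl libraries by 0.276 to 0.470, against 0.383 to 0.508 for all genes. These medians were not matched for level. A value of 50 in at least 2 libraries was reached by 88 of the 92 members tested, against 9704 of the 12777 genes tested.

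**Figure D1:**
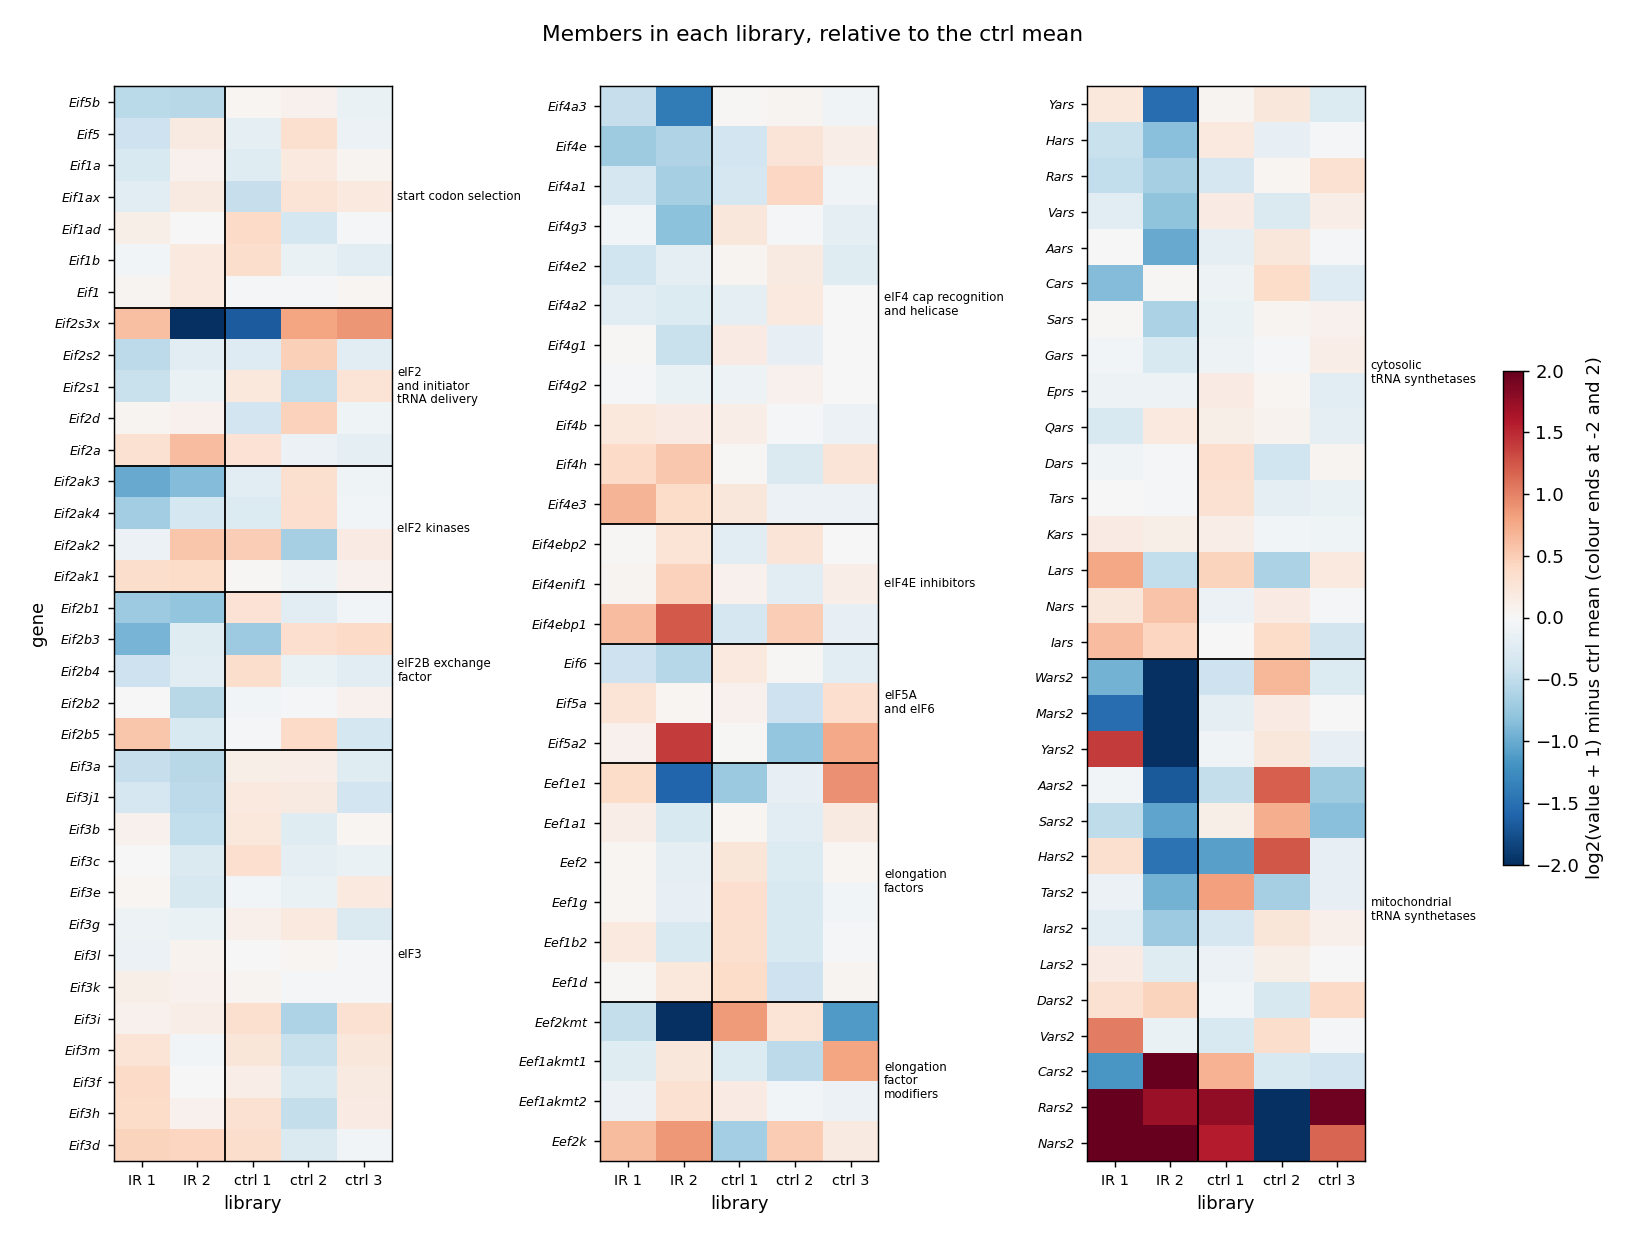
Each row is 1 translation factor or synthetase gene (pseudogenes left out), grouped by role, and each column 1 library, with IR left of ctrl. Colour gives log2(value + 1) minus the ctrl mean of that gene and ends at -2 and 2. The row of Eif2ak3 is low in both IR libraries, and the mitochondrial synthetases are lower in IR replicate 2 (median -0.84) than in IR replicate 1 (median 0.06).

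**Figure D2:**
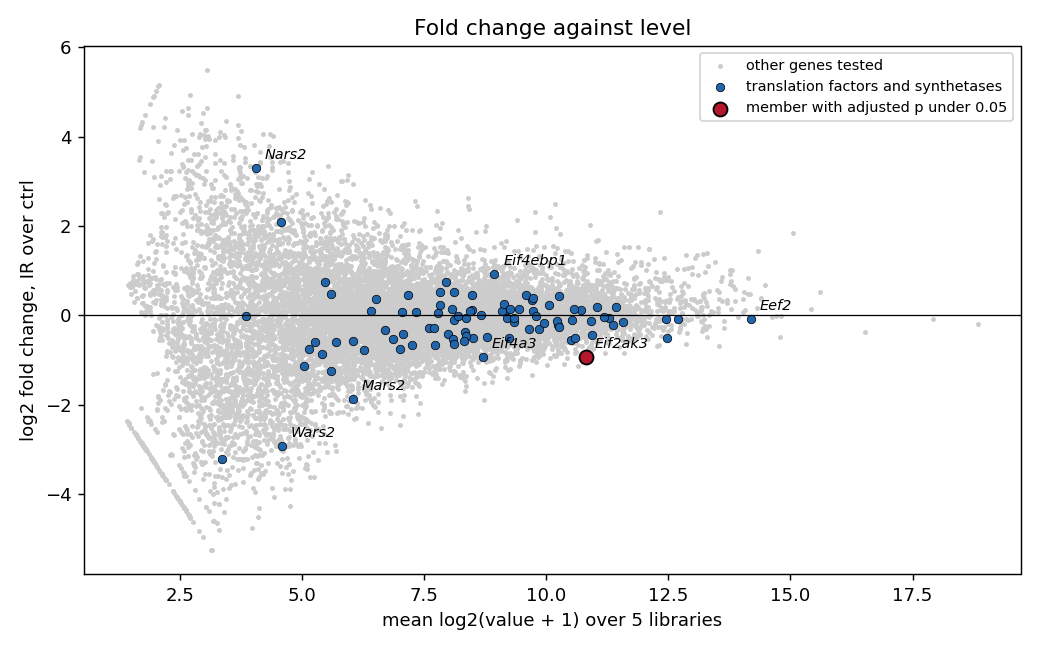
Each point is a gene, with its mean log2(value + 1) over the 5 libraries on the horizontal axis and its log2 fold change (IR over ctrl) on the vertical axis. Grey points are the other genes tested, blue points the translation factors and synthetases, and the red point the called member. Members with high values such as Eef2 (-0.08) lie close to 0, Eif2ak3 lies at -0.94, and the widest scatter is among members with low values.

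The eIF2 kinases sense different stresses, and of their 4 genes 1 fell and 0 rose by the test (all genes: 0.360% lower, 1.14% higher). PERK is an endoplasmic reticulum membrane protein that responds to unfolded proteins in the lumen. Its gene Eif2ak3 (chr6:70844515-70905245, plus strand, GRCm38) read 1150.7 and 1270.1 in IR libraries, against 1965.8, 2883.0 and 2182.1 in ctrl libraries. The groups did not overlap, and ctrl replicate 2 was the highest. The mean was 1210 ± 84.4 in IR libraries (SD, n = 2) and 2344 ± 479 in ctrl libraries (SD, n = 3). On the log2 scale the difference was -0.94 ± 0.21 (SE, 95% interval -1.37 to -0.50) with a limma adjusted p of 0.025. The adjusted p stayed under the threshold without IR replicate 1 (limma adjusted p = 0.0352) and without IR replicate 2 (0.0287), but not without ctrl replicate 1 (0.0972), 2 (0.154) or 3 (0.0996), where the log2 fold change was -1.05, -0.78 and -0.98. Each fit without an IR library leaves 1 IR library, which is assumed to vary like the ctrl libraries.

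Eif2ak1, which encodes the haem-regulated kinase HRI, read 959.0 and 962.4 in IR libraries, against 760.6, 702.5 and 795.7 in ctrl libraries, a log2 fold change of 0.35 (adjusted p = 0.491, limma). Eif2ak4, for GCN2, the kinase activated by uncharged tRNA, read 192.5 and 246.3 in IR libraries, against 257.8, 398.3 and 302.2 in ctrl libraries, with a log2 fold change of -0.53 (limma adjusted p = 0.496). Both of these genes were separated between the groups, in opposite directions, without passing the test. Eif2ak2, for PKR, which binds double-stranded RNA, overlapped between the groups, with 196.3 and 312.7 in IR libraries and 296.6, 133.4 and 238.0 in ctrl libraries. Per kilobase of exon, Eif2ak3 stood at 1.13 and 1.24 times Eif2ak1 in IR libraries, against 2.43, 3.86 and 2.58 times in ctrl libraries. Eif2ak3 was the higher of the pair in all 5 libraries, by a smaller margin in both IR libraries. This ratio sets a gene with lower IR values over one with higher IR values. It therefore follows from the values above and is a description without a test.

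The promoter of Eif2ak3 is shown because it belongs to the called member and is dense in one short motif. It covers the 250 bases before the gene's start in RefSeq (GRCm38.p6, chr6:70844265-70844514, plus strand), and capitals mark CCAAT, or ATTGG where the motif lies on the other strand. This motif was looked for after the sequence had been seen.
Eif2ak3 promoter: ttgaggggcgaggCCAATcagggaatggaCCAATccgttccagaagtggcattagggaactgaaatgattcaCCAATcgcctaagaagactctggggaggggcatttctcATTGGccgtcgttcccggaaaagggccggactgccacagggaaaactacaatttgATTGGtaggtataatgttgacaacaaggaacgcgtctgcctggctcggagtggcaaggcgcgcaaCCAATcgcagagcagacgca
The window holds 6 matches, 4 forward and 2 reverse. At least 6 matches on the 2 strands were present in 18 of the 27025 genes with a window (0.0666%). Among the 9704 tested genes with a window the share was 0.103%. Of the 71 members matched to a window 1 reached this count, Eif2ak3 itself. The motif and the cut-off of 6 were both taken from Eif2ak3, so these shares describe its promoter and test nothing. At least 1 match was present in 35.2% of the 71 members, beside 40.3% of tested genes and 37.5% of all genes. A match is a stretch of letters and no measured binding site.

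A list of genes tied to ATF4 and the response to eIF2 phosphorylation (the integrated stress response) had 1 call. Not every gene in it is a target of ATF4. Of the 25 listed genes 23 were tested, and 1 was higher and 0 lower (all genes: 1.14% and 0.360%), with a median log2 fold change of 0.05. Both IR libraries lay above the ctrl range for 7 of the 23 and below it for 4, beside 15.2% and 16.3% of all genes. The gene that passed was Cebpb, for the transcription factor C/EBPβ, which also drives myeloid differentiation. It read 21704.6 and 29561.4 in IR libraries, against 12479.3, 14548.2 and 15968.3 in ctrl libraries, a log2 fold change of 0.83 (SE 0.18, with adjusted p = 0.0223 by limma). Atf4 itself read 3011.7 and 3136.1 in IR libraries, within the range of 2823.6, 3889.3 and 3349.5 in ctrl libraries. Ddit3, for the stress factor CHOP, read 510.4 and 567.4 in IR libraries and 644.8, 661.4 and 489.8 in ctrl libraries, and also overlapped. The other listed genes above the ctrl range were Gpt2 (log2 fold change 1.76), Chac1 (0.96), Ddit4 (0.92), Nupr1 (0.61), Sesn2 (0.60) and Atf3 (0.35). Those below it were Mthfd2 (-0.50), Slc7a5 (-0.45), Slc3a2 (-0.43) and Ppp1r15b (-0.10). None of these 10 passed the test, with limma adjusted p from 0.232 to 0.855. The listed genes other than Cebpb were named after their values had been seen.

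eIF2 itself and its exchange factor had no member past the test. Eif2s1, the subunit that the kinases phosphorylate, read 166.4 and 205.9 in IR libraries and 262.0, 159.8 and 274.5 in ctrl libraries. Eif2s2, the beta subunit, read 246.8 and 308.5 in IR libraries and 299.2, 498.8 and 305.9 in ctrl libraries. The groups overlapped for both. Eif2s3x, the X-linked gamma subunit that binds GTP, was low and scattered, at 64.5 and 9.2 in IR libraries against 12.6, 74.0 and 78.9 in ctrl libraries. Eif2a, a separate factor that can deliver initiator tRNA and is not the kinase substrate, read 387.0 and 483.3 in IR libraries, against 383.7, 289.6 and 276.7 in ctrl libraries, with a log2 fold change of 0.46 (adjusted p = 0.505, limma). Its lower IR value lay just above the highest ctrl value.

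Of the 5 eIF2B subunits, 4 had a negative log2 fold change and the median was -0.33. Eif2b1, the alpha subunit, read 95.3 and 90.8 in IR libraries, against 192.7, 134.3 and 150.4 in ctrl libraries, a log2 fold change of -0.75 (limma adjusted p = 0.464). The groups were apart for it and, narrowly, for Eif2b4, whose lowest ctrl value was 95.6. Eif2b5, the catalytic epsilon subunit, went the other way in IR replicate 1, with 510.4 and 279.0 in IR libraries and 338.0, 454.0 and 272.3 in ctrl libraries. Eif2b3 read 30.8 and 50.4 in IR libraries and 35.5, 75.8 and 78.8 in ctrl libraries, and Eif2b2 read 207.5 and 140.4 in IR libraries and 200.3, 204.6 and 219.0 in ctrl libraries.

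Among the factors of start codon selection and subunit joining, the median of 7 genes was -0.02. Eif5b, the GTPase that joins the large subunit to the small one, was the member with the largest difference, at 1160.9 and 1141.5 in IR libraries against 1731.7, 1789.5 and 1538.2 in ctrl libraries. Its log2 fold change was -0.55 (SE 0.20, with adjusted p = 0.194 by limma), and the IR libraries, which lay close together, were both below every ctrl library. In GENCODE, 16.8% of its exon bases are shared with Rev1 on the opposite strand. Eif1, which guards the start codon against mismatches, read 1685.3 and 1860.1 in IR libraries, against 1592.2, 1593.1 and 1656.5 in ctrl libraries, a small separation with a log2 fold change of 0.13. Eif5, the GTPase activator of eIF2, read 1488.1 and 2256.9 in IR libraries and 1734.2, 2488.4 and 1827.3 in ctrl libraries, so that 1 IR library lay below the ctrl range and the other within it.

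The 13 rows for eIF3, the scaffold of the small subunit complex, summed to 19280 and 16906 in IR libraries, against 22291, 18729 and 18740 in ctrl libraries. Their median log2 fold change was -0.02. Eif3a, the large core subunit, read 4797.1 and 4451.5 in IR libraries, against 7124.6, 7202.9 and 5542.5 in ctrl libraries, with a log2 fold change of -0.51 (SE 0.19, with adjusted p = 0.188 by limma). Eif3d, a subunit that can itself bind the cap, was separated in the other direction, at 1480.6 and 1455.0 in IR libraries against 1382.7, 885.2 and 1035.9 in ctrl libraries (log2 fold change 0.44, limma adjusted p = 0.362). An antisense gene, Gm17638, covers 43.3% of the exon bases of Eif3d, and reads from both strands may not have been kept apart. Eif3c, also of the core, overlapped, at 3129.5 and 2588.0 in IR libraries and 3967.1, 2771.5 and 2857.4 in ctrl libraries. The remaining subunits had log2 fold changes from -0.42 (Eif3j1) to 0.23 (Eif3h), and among them Eif3k alone was separated, by a narrow gap and upwards.

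The cap-binding and helicase factors had a median of -0.25, and their members split in both directions without a call. Eif4a3, a helicase that works in the exon junction complex rather than in initiation, read 388.8 and 202.5 in IR libraries, against 540.9, 555.4 and 510.3 in ctrl libraries. Its log2 fold change was -0.93 ± 0.31 (SE, 95% interval -1.56 to -0.30, limma adjusted p = 0.137), as large as that of Eif2ak3 but with a wide gap between the IR libraries, while the ctrl libraries lay close together. Eif4e, the cap-binding protein, read 111.2 and 120.2 in IR libraries, against 138.6, 219.2 and 199.3 in ctrl libraries, a log2 fold change of -0.65 (limma adjusted p = 0.508). Of its relatives, Eif4e3 lay above the ctrl range in both IR libraries (310.3 and 249.6, against 226.5, 179.9 and 178.8), although 14.8% of its exon bases are shared with another gene on the same strand. Eif4e2, for 4EHP, which binds the cap without eIF4G, overlapped.

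The initiation helicases Eif4a1 and Eif4a2 had log2 fold changes of -0.50 and -0.25. Eif4a1 read 328.1 and 259.7 in IR libraries and 327.1, 549.9 and 393.5 in ctrl libraries, and Eif4a2 read 1127.3 and 1096.1 in IR libraries, just under 1159.5, 1506.4 and 1330.1 in ctrl libraries. The helicase cofactors Eif4b and Eif4h lay above the ctrl range in both IR libraries, by little. Eif4b read 3016.4 and 2915.9 in IR libraries against 2876.0, 2558.7 and 2423.0 in ctrl libraries, and Eif4h read 880.5 and 985.1 against 693.0, 554.5 and 808.9. The scaffold genes overlapped between the groups. Eif4g1, which links cap, helicase and eIF3, read 2831.3 and 2033.3 in IR libraries and 3127.0, 2495.7 and 2762.5 in ctrl libraries. Eif4g2, a relative that does not bind eIF4E, read 6701.1 and 6163.8 in IR libraries and 6348.7, 7194.7 and 6858.8 in ctrl libraries (log2 fold change -0.08 ± 0.18, SE).

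The 3 genes for proteins that bind and hold eIF4E had positive log2 fold changes, with a median of 0.25, and none passed the test. Eif4ebp1, the 4E-binding protein 1, read 581.4 and 887.6 in IR libraries, against 301.7, 533.5 and 339.4 in ctrl libraries. Both IR libraries lay above the ctrl libraries, by a small margin over ctrl replicate 2, and the log2 fold change was 0.92 ± 0.30 (SE, 95% interval 0.31 to 1.53, limma adjusted p = 0.130). Eif4ebp2 read 677.7 and 806.1 in IR libraries and 565.4, 791.1 and 658.5 in ctrl libraries, and Eif4enif1, for the transporter 4E-T, read 536.5 and 714.5 in IR libraries and 549.3, 447.6 and 568.7 in ctrl libraries. Per kilobase of exon, Eif4ebp1 stood at 14.3 and 20.2 times Eif4e in IR libraries, against 5.96, 6.66 and 4.66 times in ctrl libraries. The ratio sets a gene with higher IR values over one with lower IR values and was chosen after both had been seen, so it is a description without a test.

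The mTORC1 pathway controls the 4E-binding proteins. The 23 genes listed with it include activators, inhibitors and targets of mTORC1 and other kinases that act on translation. Of these 23, 0 were higher and 0 lower (all genes: 1.14% and 0.360%). Their median log2 fold change was -0.24, which gives no direction for the activity of the pathway. Both IR libraries lay below the ctrl range for 6 of the 23 and above it for 2, beside 16.3% and 15.2% of all genes. Below it were Depdc5 (log2 fold change -0.97), Rptor (-0.74), Rps6kb1 (-0.67), Tsc1 (-0.54), Castor2 (-0.47) and Rragc (-0.26). Above it were Mknk1 (1.06) and Rps6ka1 (0.46). The members with the highest means overlapped between groups: Pdcd4, an inhibitor of eIF4A, read 2978.1 and 2546.9 in IR libraries and 3204.8, 3042.8 and 2903.4 in ctrl libraries, and Larp1, which represses mRNAs with a pyrimidine start, read 1741.4 and 1534.0 in IR libraries and 2056.2, 2056.3 and 1660.1 in ctrl libraries. Mknk1, one of the kinases that phosphorylate eIF4E, missed the threshold narrowly. It read 648.7 and 938.1 in IR libraries, against 399.7, 313.3 and 415.3 in ctrl libraries, with a log2 fold change of 1.06 (SE 0.28, with adjusted p = 0.0505 by limma), and was singled out after its value had been seen.

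**Figure D3:**
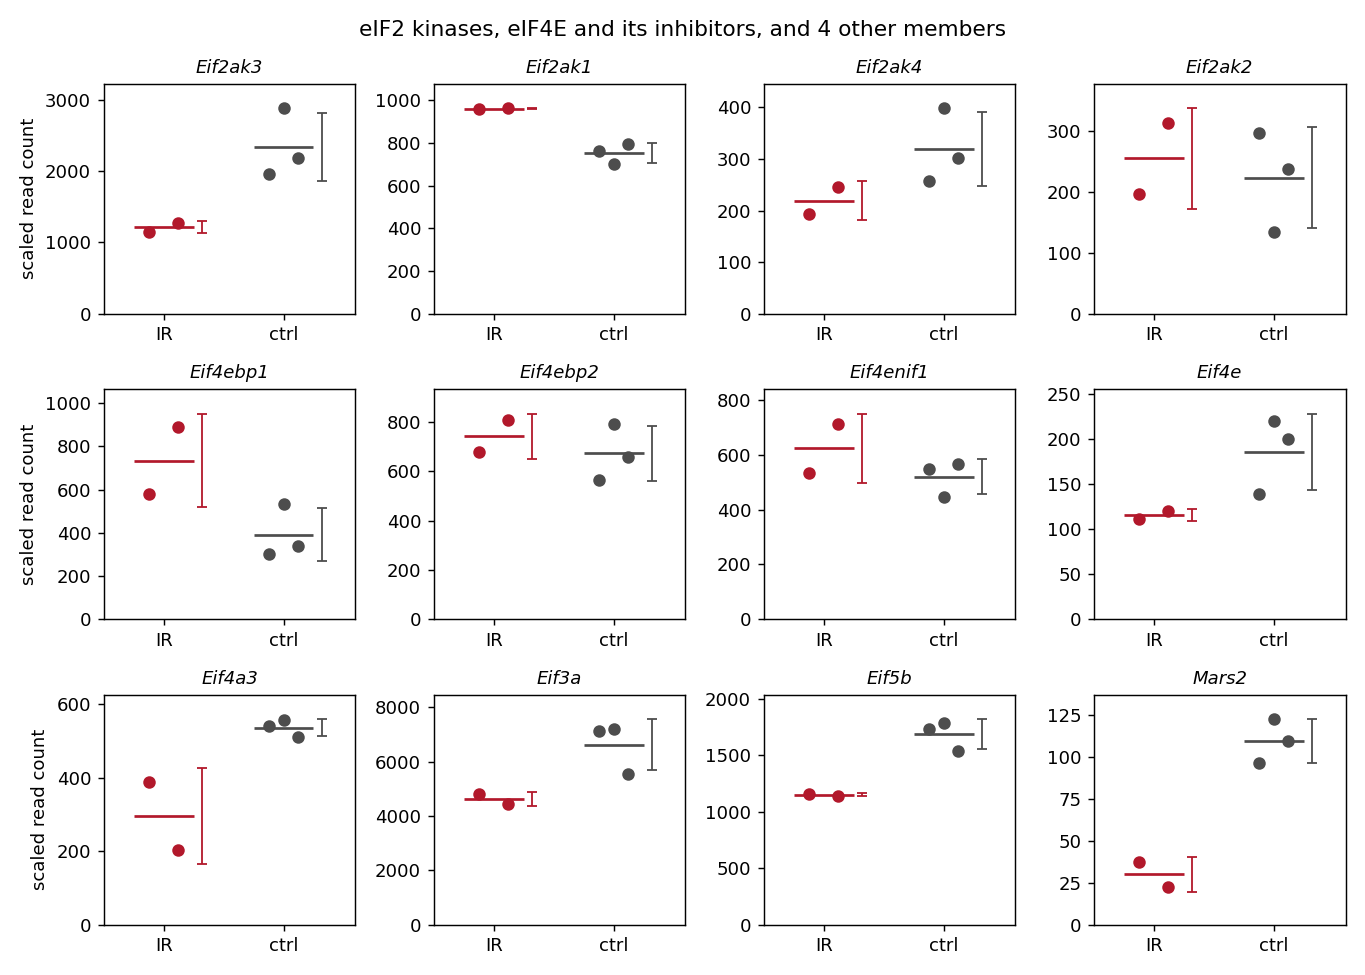
Each panel is 1 gene and each point 1 library, with IR (n = 2) left of ctrl (n = 3), a line at each group's mean and a whisker of 1 SD to either side. The vertical axis is the authors' scaled value and starts at 0. Eif2ak3 is lower in both IR libraries (1150.7 and 1270.1) than in every ctrl library, and Eif4ebp1 is higher in both IR libraries (581.4 and 887.6) than in every ctrl library.

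eIF5A eases difficult peptide bonds and carries hypusine, an unusual amino acid made on it alone, and eIF6 keeps free large subunits from joining. Eif5a read 1761.0 and 1497.8 in IR libraries and 1543.2, 1098.9 and 1835.3 in ctrl libraries, and Eif5a2, its low paralogue, read 37.4 and 94.2 in IR libraries and 35.5, 20.1 and 59.9 in ctrl libraries. Both overlapped. Eif6 read 380.4 and 339.6 in IR libraries, against 578.9, 516.1 and 430.0 in ctrl libraries, a log2 fold change of -0.49 (limma adjusted p = 0.423), with the groups apart. The hypusine enzymes Dohh (172.9 and 156.3 in IR libraries, 227.4, 75.8 and 153.3 in ctrl libraries) and Dhps (116.8 and 186.6 in IR libraries, 229.9, 86.8 and 134.3 in ctrl libraries) were neither higher nor lower by the test.

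The elongation factors Eef2, Eef1a1 and Eef1b2 held the highest levels per kilobase of exon among all members. Such levels were not adjusted for reads that match more than 1 gene copy, which limits comparison between genes. Of the 6 elongation genes, 0 passed the test and 0 were separated, beside 1.50% and 31.5% of all genes. Eef2, the translocase, took 20.4% and 19.6% of the summed value of all members, not adjusted for length, in IR libraries, against 21.7%, 16.9% and 20.4% in ctrl libraries. It read 19531.4 and 16660.6 in IR libraries and 22484.1, 15620.7 and 19620.1 in ctrl libraries, a log2 fold change of -0.08 ± 0.18 (SE, 95% interval -0.45 to 0.30). Eef1a1, the carrier of aminoacyl-tRNA, read 6318.8 and 4618.8 in IR libraries and 5903.3, 4900.9 and 6515.0 in ctrl libraries (log2 fold change -0.09 ± 0.20, SE). The subunits of its exchange factor, Eef1b2, Eef1d and Eef1g, had log2 fold changes of -0.05, 0.12 and -0.06. Per kilobase of exon, Eef2 came first, with a mean level of 5444 in IR libraries and 5789 in ctrl libraries, and Eef1a1 second, with 2194 in IR libraries and 2316 in ctrl libraries. Eef1b2 (972 in IR libraries, 1010 in ctrl libraries) and Eif3c (814 in IR libraries, 911 in ctrl libraries) followed. Eef1e1, a small protein of the multisynthetase complex, was low and varied, at 57.9 and 14.2 in IR libraries and 26.2, 39.3 and 84.7 in ctrl libraries.

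**Figure D4:**
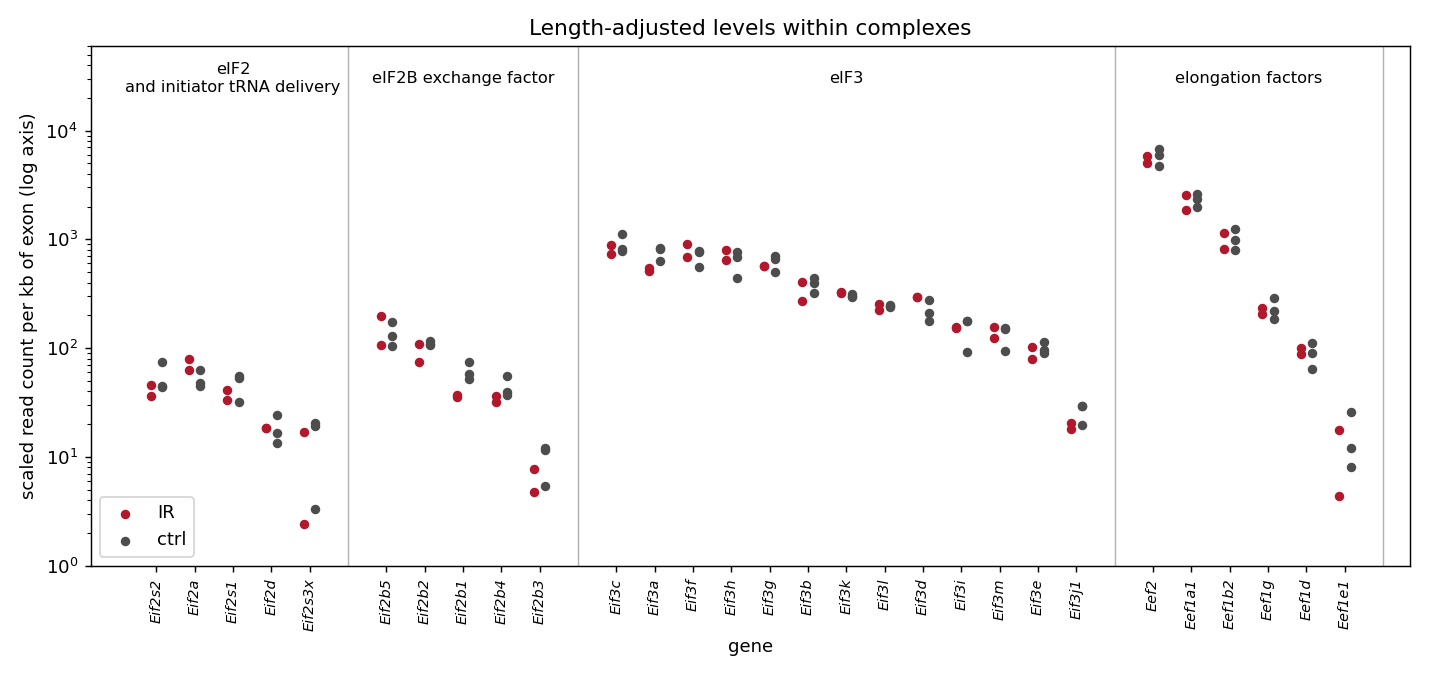
Each point is 1 library, with IR left of ctrl for each gene of eIF2, eIF2B, eIF3 and the elongation factors; the vertical axis is the scaled value per kilobase of exon, on a log axis. Eef2 is highest (mean 5444 in IR and 5789 in ctrl libraries), most eIF3 genes lie above all eIF2 and eIF2B genes, and Eif2s3x and Eef1e1 are low and scattered in both groups. Levels were not adjusted for reads that match more than 1 gene copy.

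Of the enzymes that modify elongation factors, Eef2k, the calmodulin-dependent kinase that inhibits eEF2, was separated. It read 311.3 and 366.5 in IR libraries, against 125.0, 285.9 and 227.7 in ctrl libraries, with a log2 fold change of 0.74 (limma adjusted p = 0.358). The methyltransferase genes Eef2kmt (47.7 and 15.9 in IR libraries, 120.9, 81.3 and 29.9 in ctrl libraries) and Eef1akmt2 (75.7 and 100.9 in IR libraries, 92.1, 78.6 and 75.2 in ctrl libraries) overlapped.

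The 16 synthetase symbols without the ending 2 had a median log2 fold change of -0.14, with 4 positive and 12 negative. Past the test were 0 of them, beside 1.50% of all genes. IR replicate 1 stood at -0.02 (median log2 relative to ctrl) and IR replicate 2 at -0.20. Vars, for the valine enzyme, read 1515.2 and 1011.2 in IR libraries and 1969.2, 1443.3 and 1933.9 in ctrl libraries, a log2 fold change of -0.51 (limma adjusted p = 0.286), and Eprs, for the fused glutamate and proline enzyme, read 1409.6 and 1405.4 in IR libraries and 1698.7, 1548.4 and 1298.0 in ctrl libraries. Yars, for tyrosine, rested on 1 library: it read 293.5 and 88.2 in IR libraries and 262.8, 296.9 and 210.2 in ctrl libraries. Hars, for histidine, lay below the ctrl range in both IR libraries, with 243.0 and 184.9 against 377.8, 294.1 and 324.9 in ctrl libraries (log2 fold change -0.64, limma adjusted p = 0.372), as did Rars, for arginine. Nars, for asparagine, and Iars, for isoleucine, lay above it in both, with log2 fold changes of 0.40 and 0.53.

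Mars1 and Wars1, the newer symbols of the methionine and tryptophan enzymes, are in the table but were not taken by the symbol rule, which names Mars and Wars. Mars1 read 228.1 and 317.7 in IR libraries and 317.8, 232.9 and 254.0 in ctrl libraries (log2 fold change 0.02). Wars1, which interferon induces, read 527.2 and 207.6 in IR libraries and 288.2, 249.4 and 224.1 in ctrl libraries (log2 fold change 0.39, limma adjusted p = 0.67), so that the IR libraries lay on either side of the ctrl range. A further list of 12 synthetase genes outside the rule and scaffold proteins of the synthetase complex had 0 higher and 0 lower and a median of -0.20. The genes with the highest mean values in it were Aimp1, a scaffold (340.2 and 198.3 in IR libraries, 273.0, 204.6 and 319.8 in ctrl libraries), and Farsa, for the phenylalanine enzyme (178.5 and 245.5 in IR libraries, 150.4, 171.7 and 178.8 in ctrl libraries).

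Several cytosolic synthetase promoters hold letters that match the C/EBP-ATF response element, through which ATF4 is known to act. No binding was measured, and these stretches are shown so that each can be read beside its gene's value. The motif searched was TGATGNAAN on both strands, in windows from 250 bases before to 50 after the start in RefSeq (GRCm38.p6), and capitals mark the match.
Gars (chr6:55037955-55037993): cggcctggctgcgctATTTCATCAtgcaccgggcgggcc
Iars (chr13:49682121-49682159): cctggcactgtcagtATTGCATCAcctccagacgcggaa
Tars (chr15:11399651-11399689, minus strand): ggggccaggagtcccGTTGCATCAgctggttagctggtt
Yars (chr4:129189891-129189929): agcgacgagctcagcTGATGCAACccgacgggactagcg
Eef2k (chr7:120851089-120851127): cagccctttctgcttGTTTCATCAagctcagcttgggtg
Eif2s3x (chrX:94212725-94212763, minus strand): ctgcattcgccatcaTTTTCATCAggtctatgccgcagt
Where no strand is given the gene lies on the plus strand. A gene with more than 1 start in RefSeq was counted if any of its windows held a match. Eef2k has 3 windows, and its match lies in the window chr7:120850939-120851238, at a start inside the gene, which begins at 120842831 in GENCODE. A match was present in 5 of the 10 cytosolic synthetases with a window, in 7 of 71 members (9.86%), in 2.73% of tested genes and in 4.50% of all genes with a window. The log2 fold changes of the 4 synthetases shown were -0.17 for Gars, 0.53 for Iars, 0.00 for Tars and -0.65 for Yars, and none passed the test. The 7 members with the motif had a median of -0.17, and the 64 without it -0.10.

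The E-box CACGTG, a motif bound by MYC and its relatives, was present on either strand in 15 of 71 members (21.1%), beside 11.8% of tested genes and 8.09% of all genes. The members with it had a median log2 fold change of 0.07, and the 56 without it -0.14. A start with C followed by at least 4 pyrimidines is the 5′ terminal oligopyrimidine pattern, which puts mRNAs of the translation apparatus under mTORC1. It was present at the RefSeq start of 3 of 71 members (4.23%), beside 3.01% of tested genes, and of 0 of 4 elongation factors. Only the annotated start was read, and the start used in these cells was not measured. A gene without a match is therefore not shown to lack the pattern, and a match does not show control by mTORC1. The 3 members with a match are shown from 10 bases before to 20 after the start, with the pyrimidine run in capitals.
Eif3f (chr7:108934405-108934434): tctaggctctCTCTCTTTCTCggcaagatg
Eif2s3x (chrX:94212632-94212661, minus strand): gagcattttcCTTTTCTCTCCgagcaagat
Wars2 (chr3:99141080-99141109): cggccccgccCTTCTCaagatggcgctgtt
Eif3f, an eIF3 subunit, had a log2 fold change of 0.19, whereas those of Eif2s3x and Wars2 were negative.

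The 14 mitochondrial synthetases had low values and the widest scatter. Their median log2 fold change was -0.50, with IR replicate 2 at a median of -0.84 relative to ctrl and IR replicate 1 at 0.06. None passed the test, beside 1.50% of all genes. Lars2, for the mitochondrial leucine enzyme, had the highest values among them, also per kilobase, at 2660.3 and 1978.6 in IR libraries and 2179.6, 2546.8 and 2364.6 in ctrl libraries (log2 fold change -0.04 ± 0.20, SE). Mars2, for methionine, lay low in both IR libraries, at 37.4 and 22.7 against 96.3, 122.4 and 109.5 in ctrl libraries, a log2 fold change of -1.86 ± 0.64 (SE, 95% interval -3.18 to -0.55, limma adjusted p = 0.152). Wars2, for tryptophan, was almost without signal in 1 library, reading 27.1 and 0.8 in IR libraries and 39.7, 85.0 and 43.8 in ctrl libraries (limma adjusted p = 0.238). Nars2, for asparagine, was the reverse case, with 39.3 and 105.2 in IR libraries, against 18.6, 0.0 and 13.8 in ctrl libraries (limma adjusted p = 0.271). Iars2, for isoleucine, overlapped, at 320.6 and 224.4 in IR libraries and 293.2, 440.3 and 400.1 in ctrl libraries, and it shares 22.9% of its exon bases with Rab3gap2 on the opposite strand. Yars2 read 118.7 and 2.5 in IR libraries and 42.2, 52.1 and 39.4 in ctrl libraries, so that the IR libraries lay on opposite sides of the ctrl range.

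The list of 12 mitochondrial translation factors also had 0 higher and 0 lower, with a median of -0.58, and here 4 genes lay below and 1 above the ctrl range in both IR libraries, beside 16.3% and 15.2% of all genes. Gfm1, the mitochondrial elongation factor G, read 185.1 and 286.6 in IR libraries and 245.1, 306.0 and 242.4 in ctrl libraries. Mtif2, the mitochondrial initiation factor 2, read 133.7 and 103.4 in IR libraries, against 136.9, 158.9 and 171.6 in ctrl libraries, close below the ctrl range. Termination, recycling and poly(A)-binding genes of the cytosol had 0 of 13 higher, 0 lower and a median of 0.02. Pabpc1, the main poly(A)-binding protein, read 9816.6 and 10967.5 in IR libraries and 10821.2, 9649.2 and 10163.0 in ctrl libraries, and Etf1, the release factor that reads stop codons, read 2236.8 and 2655.3 in IR libraries and 2302.2, 1833.4 and 2047.8 in ctrl libraries.

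The pseudogene Eif4a-ps4 passed the filter through its ctrl libraries, so its difference was in part set by the filter. It read 6.5 and 0.0 in IR libraries, against 29.6, 12.8 and 36.7 in ctrl libraries, and its reads may come from near-identical Eif4a copies. At least 10% of exon bases were shared with a gene on the opposite strand for 8 members and with one on the same strand for 2, and the strand setting of the counting is not given in the sources used here.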

How the data were processed

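Libraries were made from CD45+ lung cells with SMARTer stranded total RNA reagents for small inputs (Pico, v2), per the labels' protocols. HISAT2, HTSeq and mm10 (GRCm38) are named, without role, per the submitters' processing notes. The deposited values carry 1 decimal and step almost evenly within a library, so they were treated as a signal that the authors made by scaling read counts. How they scaled is not given in the sources used here. Whole reads could not be recovered from the steps, and a test on counts was not run. The depth in reads and the counting error are therefore unknown.

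Groups follow the treatment label, and replicate numbers are in accession order. The filter kept 12777 genes that reached a value of 10 in 2 or more of the 5 libraries. Log2(value + 1) was modelled in limma 3.58.1 under R 4.3.3, with statmod 1.5.0 for the robust trend, two-sided, with Benjamini-Hochberg adjustment over all genes kept and a threshold of 0.05. Fold changes are on this log2 scale and understate differences at low values. With 2 libraries against 3, no exact permutation p can be smaller than 0.1. On simulated data (200 of 12777 genes changed, 20 simulations) the fit for IR against ctrl recovered 6.5% of 2-fold and 40.4% of 4-fold changes, and 5.82% of its calls were false, so most changes of these sizes were missed in simulation. Each simulated gene varied independently of the others, with the same spread in all 5 libraries. In the data IR replicate 2 stood apart over all genes, so these rates may not hold for the calls here.

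The members and gene lists were chosen with earlier results of these data known. Members named by rule were those called, the 2 highest and the 2 most changed in each role, and a set of central factors; others were named after their values were seen. Pathway lists were named by their called genes or the 2 with the highest means. Exon lengths, coordinates and overlaps come from GENCODE vM21 (92 of 93 members matched) and promoters from RefSeq GRCm38.p6 (71 of 93). Alternatives varied the scaling, pseudocount, filter, robust estimation, library weights, member set and each library in turn. The motif stretch of 1 synthetase gene is not reported here.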

Additional observations from a re-analysis of the deposited data

How the results depend on the processing

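No paired analysis was possible because the labels give no replicate numbers that IR and ctrl libraries share. Eif2ak3 was the member called, and lower, under the median-of-ratios factors, library totals, pseudocounts of 5 and 0.5, both other filters, no robust estimation, library weights and both other member sets, with a limma adjusted p of 0.00416 to 0.0394 over those refitted. The pseudocount of 0.5 and the addition of Mars1 and Wars1 were chosen after seeing the data. Scaling to library totals moved the member median to -0.21 and that of all genes to -0.17, and split the calls over all genes into 143 higher and 116 lower (55.2% higher), beside 146 and 46 as deposited (76.0%). There the log2 fold change of Eef1akmt2 turned to -0.02 and that of Eif2b5 to -1.6e-05. Leaving out each library in turn gave 19 to 1006 calls over all genes, 0 to 9 members called, member medians of -0.18 to 0.00 and 35 to 62 members separated. Of 92 members, 35 were separated without ctrl replicate 2 and 62 without IR replicate 1, beside 43.5% and 66.4% of all genes. Without ctrl replicate 1, ctrl replicate 3 and IR replicate 2 it was 40, 38 and 47 members, beside 42.0%, 42.1% and 56.9%. Each fit without an IR library rests on the other IR library, assumed to vary like the ctrl libraries. Calls in those fits are therefore not interpreted here. The log2 fold change of Eif2ak3 was -0.86 without IR replicate 1 and -1.01 without IR replicate 2. Without IR replicate 1 the log2 fold changes were -1.40 for Eif4a3, 1.22 for Eif4ebp1, -4.90 for Wars2 and -1.52 for Yars. Single genes were refitted for the 46 members named by rule. Among these, signs turned when 1 library was left out for Eef1a1 (-0.31 to 0.14), Eef1akmt2 (-0.11 to 0.30), Eef1d (-0.09 to 0.31), Eef1e1 (-1.58 to 0.37), Eef2 (-0.22 to 0.04), Eif2ak2 (-0.11 to 0.56), Eif2b5 (-0.31 to 0.56), Eif2s3x (-2.09 to 0.60), Eif3c (-0.29 to 0.02), Eif4g1 (-0.45 to 0.02), Eif5 (-0.42 to 0.18), Eif5a (-0.05 to 0.32), Lars2 (-0.25 to 0.17) and Yars (-1.52 to 0.21). Of members outside these, the IR libraries lay on opposite sides of the ctrl mean for Yars2 (1.40 and -3.69, log2), Cars2 (-1.17 and 2.13) and Lars (0.77 and -0.49), among others. The causes were not tested.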
